A study of Caenorhabditis elegans with 18 samples.

Results

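The comparison described here set first-stage (L1) larvae of the Caenorhabditis elegans strain lin-35(n745) against L1 larvae of the wild-type strain N2. Its members were the 6 arrays whose titles name these strains at this stage, 3 of each strain, out of 18 arrays in the series, which also covers embryos and L4 larvae of both strains. The lin-35(n745) larvae carried the n745 allele, known as a nonsense mutation of lin-35, and the N2 larvae carried no allele named in the labels. Per the labels, both strains grew on agar plates with OP50 bacteria and were harvested as synchronized populations of whole animals, and per the design text the 3 arrays of a group come from animals grown and isolated separately. Whether the L1 larvae had fed, and for how long, is not given in the sources used here. Each array measured 22548 probe sets, the short oligonucleotide sets with which an Affymetrix array reads a transcript, and all values below are normalized log2 signals, so that a difference of 1 is a 2-fold change.

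LIN-35 is the worm's pocket protein, the relative of the mammalian retinoblastoma protein. It acts with the transcription factor pair EFL-1 and DPL-1 and with the MuvB proteins in a complex called DREAM, which represses cell cycle genes and, in somatic cells, genes that are normally used in the germline. lin-35 mutants are viable and are known for germline proteins in somatic larval tissues, for a heightened response to RNA interference and for multivulval animals when combined with mutations of partner genes. A newly hatched L1 larva has a single pair of germline precursor cells among its somatic cells, so nearly all of its RNA comes from somatic tissue.

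The lin-35 transcript itself read 7.84, 7.82 and 7.86 in the N2 arrays and 6.51, 6.24 and 6.95 in the lin-35(n745) arrays, a difference of -1.27 ± 0.15 (log2 ± SE, n = 3 arrays per strain, adjusted p = 3.29e-06, limma). The groups did not overlap. A nonsense mutation leaves the probed sequence in the transcript, so the level checks the labels through the amount of RNA and not through a missing target.

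The N2 L1 arrays resembled each other more (correlation between arrays 0.995 to 0.997) than the lin-35(n745) L1 arrays did (0.986 to 0.989), and pairs of arrays across the strains lay at 0.975 to 0.981. The median SD of a probe set was 0.110 in N2 L1 and 0.164 in lin-35(n745) L1, the highest of the 6 groups. In the main fit, the SE of a difference and its adjusted p rest on a probe set's spread pooled over all 18 arrays. They can understate the error where the mutant L1 arrays spread widely. The first principal component of the L1 arrays, with 62.1% of the variance, separated the strains, and the second, with 15.7%, set lin-35(n745) replicate 2 (score -29.2) apart from replicate 3, which had the opposite sign. The 18 spiked hybridization controls all read lower in lin-35(n745) than in N2, by a median of -0.44 (range -0.77 to -0.20). Their part in the results was not tested. The summed level of embryonic patterning genes, markers of the stage before hatching, was 12.54 to 12.59 in N2 L1 and 12.54 to 12.71 in lin-35(n745) L1, against 13.95 to 14.07 in N2 embryos. The summed level of 77 sperm genes, which mark the L4 stage, was 12.05 to 12.41 in N2 L1 and 11.77 to 11.96 in lin-35(n745) L1, against 16.32 to 16.34 in N2 L4 larvae.

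More genes were higher than lower in the mutant, and differences of at least 2-fold were mostly increases. Of 17118 genes tested, 1492 were higher (8.72%) and 1166 lower (6.81%) in lin-35(n745) L1 larvae at an adjusted p under 0.05, and 4799 had an unadjusted p under 0.05. By at least 2-fold, 373 genes were higher (2.18%) and 176 lower (1.03%). Among the 373, 123 rose by 2 log2 units or more and 19 by 4 or more, while 25 of the 176 fell that far and 2, pud-3 and pud-4, fell by 4 or more. Counted by probe set, 3423 of 22548 were called (15.2%), with 8.24% higher and 6.94% lower. In bulk larvae, fewer cells of a type and less RNA per cell cannot be told apart, and the same holds for increases.

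The genes that rose at least 2-fold had a median level of 5.88 in N2 L1 and 7.81 in lin-35(n745) L1, and in N2 their medians at the other stages were 5.99 in embryos and 6.52 at L4. The genes that fell at least 2-fold went from a median of 8.79 to 7.16. All 3 mutant arrays lay above all 3 N2 arrays for 370 of the 373 risen genes, and below them for 140 of the 176 fallen genes. Among all genes 12.8% and 13.8% showed such separation upward and downward. The risen and fallen genes were chosen from the same L1 arrays, so their separation follows largely from that choice. The median difference over all genes was -0.04. After each array was centred on its own median that value was -0.09, and the split became 1265 genes higher and 1729 lower.

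**Figure D1:**
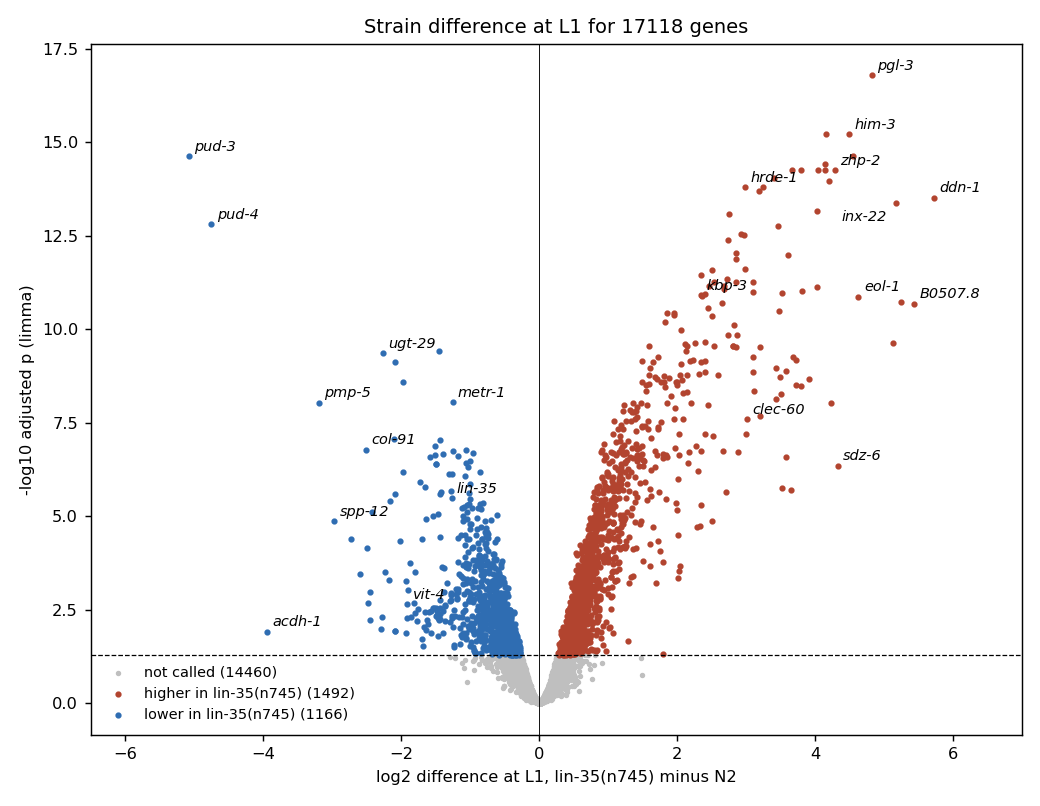
Each point is 1 of 17118 genes, placed by its log2 difference between lin-35(n745) and N2 L1 larvae (horizontal axis) and by -log10 of its adjusted p (vertical axis, dashed line at 0.05). The 1492 red genes were higher and the 1166 blue genes lower in lin-35(n745), with pgl-3 and ddn-1 at the far right and pud-3 and pud-4 at the far left.

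Several P granule proteins, the components of the RNA-rich bodies of germ cells, rose far above their N2 level. pgl-3, a constitutive P granule scaffold, read 5.65, 5.48 and 5.58 in N2 and 10.42, 10.25 and 10.48 in lin-35(n745). The difference was 4.81 ± 0.10 (adjusted p = 1.65e-17), and the 3 mutant arrays lay close together. Its paralog pgl-1 read 7.85, 7.61 and 7.60 in N2 and 10.82, 10.83 and 11.15 in the mutant, a rise of 3.25 ± 0.11 (adjusted p = 1.63e-14). The Vasa-type helicase glh-1 rose by 2.85 ± 0.13, from 8.91, 8.47 and 8.66 to 11.39, 11.49 and 11.71. Translational regulators of the germline rose with them: rnp-8, a partner of a cytoplasmic poly(A) polymerase, by 2.73 ± 0.11, the CPEB protein cpb-1 by 2.05 ± 0.12 and the zinc finger protein gla-3 by 1.98 ± 0.14. The histone methyltransferase mes-4, which maintains germline chromatin, rose by 1.16, and the germline Notch receptor glp-1 by 0.98. In none of these genes, named for the size of their rise in the same arrays, did the groups overlap. Among all genes 12.8% were separated upward in this way.

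The germline programme did not move as a whole. Of 41 measured P granule and germline development genes, 9 rose, 8 of them at least 2-fold, and 4 fell. Both shares lay above those of all genes, 8.72% higher and 6.81% lower, while the median difference of the list was 0.00. daz-1, an RNA-binding protein required for oogenesis, fell from 8.76, 8.74 and 8.79 to 7.65, 7.81 and 7.95, a difference of -0.96 ± 0.09 (adjusted p = 2.05e-07), and the translational repressor gld-1 fell by 0.52 ± 0.11, a call lost when the 6 L1 arrays were fitted by themselves (adjusted p = 0.0559). The other falls, mex-6 (-0.48) and deps-1 (-0.40), did not pass without N2 replicate 1 (mex-6 -0.35, adjusted p = 0.126, and deps-1 -0.31, adjusted p = 0.101) or without lin-35(n745) replicate 1 (mex-6 -0.41, adjusted p = 0.0837, and deps-1 -0.31, adjusted p = 0.0834). Without either of those arrays 2 members of the list fell.

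Meiotic chromosome proteins showed the same mixture. him-3, a protein of the meiotic chromosome axis, read 6.14, 6.34 and 5.83 in N2 and 10.69, 10.51 and 10.56 in lin-35(n745), a rise of 4.48 ± 0.12 (adjusted p = 6.07e-16). syp-1, a central element of the synaptonemal complex, rose from 5.96, 5.54 and 5.90 to 9.53, 9.20 and 9.06, by 3.46 ± 0.14. zhp-2, a RING finger protein of the same complex that was left off the list, rose from 5.03, 5.33 and 4.87 to 9.58, 9.15 and 9.34, by 4.28 ± 0.14. The axis protein htp-1 rose by 1.63 ± 0.19, dsb-2, which promotes meiotic double-strand breaks, 2.64-fold, and pch-2, a meiotic checkpoint ATPase, by 1.33 ± 0.14. Of 31 measured meiosis genes 8 rose (25.8%, beside 8.72% of all genes) and 1 fell (3.23%, beside 6.81%). The fall was in cra-1, by 0.35 (adjusted p = 0.0747 with the L1 arrays alone), and the median of the list was 0.07.

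The germline gap junction subunits inx-21 and inx-22, which couple germ cells to the surrounding gonad sheath, both rose. inx-22 read 5.55, 5.09 and 5.38 in N2 and 10.85, 10.66 and 10.02 in the mutant (5.17 ± 0.19, adjusted p = 4.21e-14), and inx-21 read 4.98, 4.81 and 4.61 against 9.12, 8.79 and 8.91 (4.14 ± 0.13). Among the 24 measured oocyte, eggshell and gap junction genes, 5 rose (20.8%, beside 8.72% of all genes) and 6 fell (25.0%, beside 6.81%). The other named rises were cpg-2, an eggshell proteoglycan (3.03-fold), and egg-2 (0.67 ± 0.12 on the log2 scale). Its paralog egg-1, like it an oocyte surface receptor, fell by 0.68 ± 0.14 (adjusted p = 0.0791 with the L1 arrays alone). The eggshell protein cbd-1 fell from 7.56 ± 0.28 (SD, n = 3) to 6.64 ± 0.35 (SD, n = 3), by 0.92 ± 0.15 (SE). The oocyte maturation factor oma-1 fell by 0.47, and this did not pass without lin-35(n745) replicate 1 (-0.27, adjusted p = 0.139), without N2 replicate 2 (adjusted p = 0.0894) or without N2 replicate 3 (adjusted p = 0.0655). Without lin-35(n745) replicate 1, 3 of the 24 genes fell.

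Small RNA factors rose more often than they fell, with 17 of 52 measured genes higher and 2 lower and a list median of 0.07. The shares were 32.7% higher and 3.85% lower, beside 8.72% and 6.81% of all genes. The nuclear germline Argonaute hrde-1, which carries inherited silencing, rose from 6.60, 6.36 and 6.15 to 9.32, 9.37 and 9.38, by 2.99 ± 0.10 (adjusted p = 1.63e-14). Outside the list, pid-2, a factor of piRNA-induced silencing, rose from 6.54, 6.34 and 6.26 to 10.24, 10.04 and 10.26, by 3.80 ± 0.12, and lotr-1, a LOTUS and Tudor domain protein of germ granules, from 7.04, 6.47 and 6.45 to 10.90, 10.65 and 10.82, by 4.14 ± 0.13. The Argonautes vsra-1 and csr-1 rose by 2.05 ± 0.14 and 0.91 ± 0.13, the RNA-dependent RNA polymerase gene rrf-2 by 1.48 ± 0.20, and rde-4, the double-stranded RNA-binding partner of Dicer, by 0.77 ± 0.11. The Argonaute wago-1 moved the other way, from 7.07, 6.72 and 6.93 to 6.21, 6.24 and 6.22, a difference of -0.68 ± 0.11 (adjusted p = 0.00021). The Piwi protein prg-1 fell by 0.34, and this did not pass without N2 replicate 2 (-0.25, adjusted p = 0.161) or lin-35(n745) replicate 3 (-0.23, adjusted p = 0.172).

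**Figure D2:**
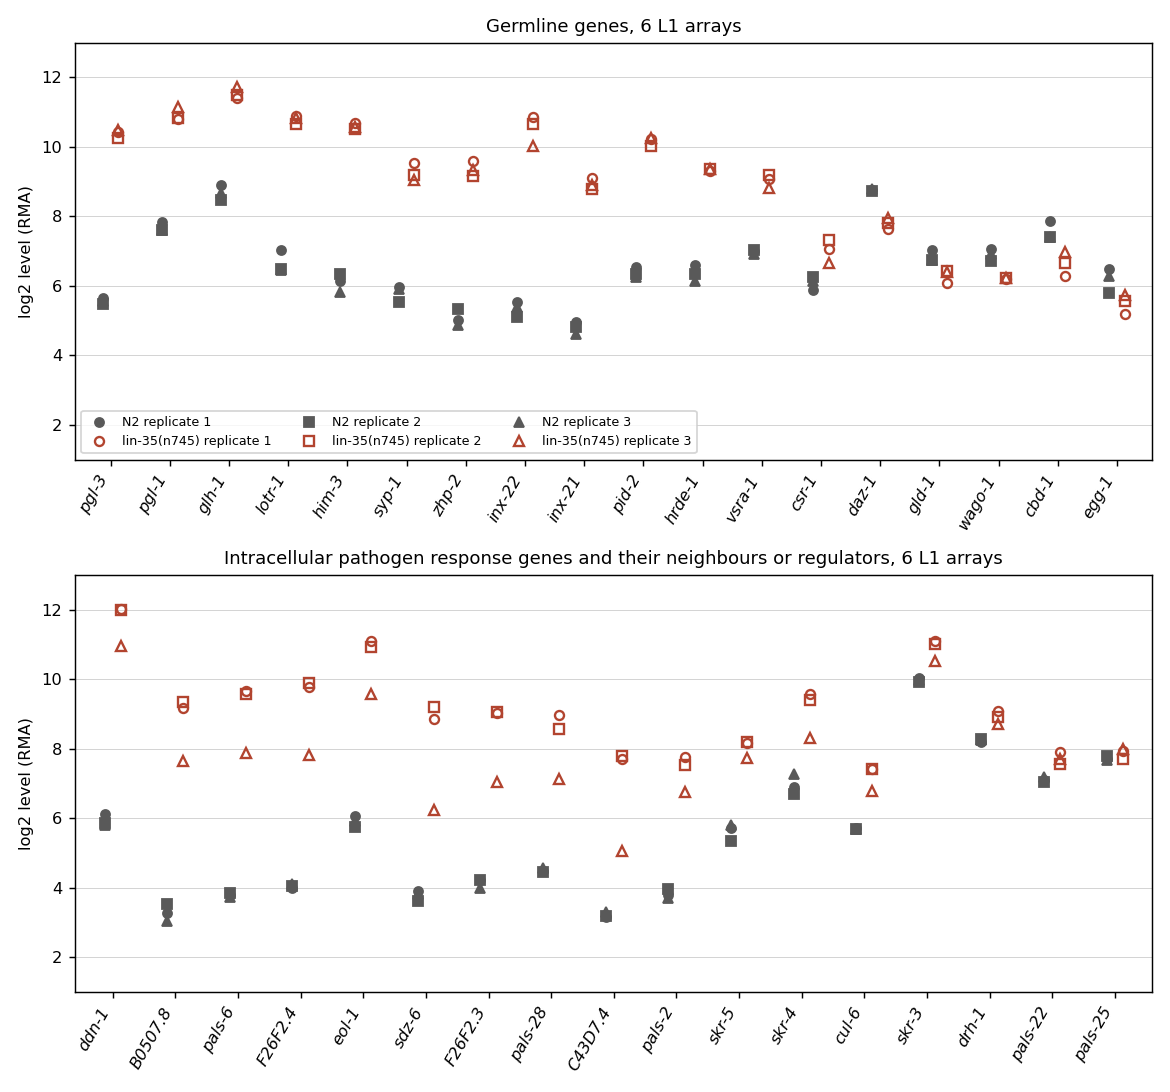
RMA log2 level (vertical axis) of germline genes (upper panel) and of intracellular pathogen response genes with their neighbours or regulators (lower panel) in the 6 L1 arrays, filled symbols for N2 and open symbols for lin-35(n745), with 1 shape per replicate. Germline genes that rose, such as pgl-3 and him-3, read nearly alike in the 3 mutant arrays, whereas in pals-6 or F26F2.4 lin-35(n745) replicate 3 read below the other mutant arrays and above N2.

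The intracellular pathogen response, a set of genes known to be induced in the worm by microsporidia and by the Orsay virus, was mostly higher in the mutant. Of its 47 measured members 41 rose (against 8.72% of all genes) and none fell, with a median difference of 2.32, and 31 rose at least 2-fold. Leaving out any 1 array left 38 to 41 rises and a median of 1.99 to 2.56. The list's summed level was 11.54 to 11.59 in N2 and 13.88, 13.80 and 12.76 in lin-35(n745) replicates 1, 2 and 3. Replicate 3 was the lowest mutant array for 38 of the 41 genes that rose and the highest for none.

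pals-6, of the large pals family named for a shared protein signature, read 3.79, 3.85 and 3.75 in N2 and 9.66, 9.58 and 7.89 in lin-35(n745), a rise of 5.25 ± 0.28 (adjusted p = 1.9e-11). ddn-1, a neighbour of the list's B0507.8 and not itself listed, rose from 6.14, 5.86 and 5.81 to 12.03, 11.99 and 10.95, by 5.72 ± 0.20, the greatest rise of any gene. B0507.8 rose by 5.44 ± 0.29 and eol-1, a relative of the decapping enzyme DXO, by 4.62 ± 0.24. In each of these the mutant replicate 3 lay between the N2 arrays and the other mutant arrays. On chromosome V the neighbours F26F2.1, F26F2.3, F26F2.4 and F26F2.5 rose by 2.88, 4.23, 5.12 and 3.51. Further rises of at least 3 log2 units included pals-28 (3.72), pals-38 (3.67), C43D7.4 (3.64), pals-27 (3.58), pals-2 (3.52), pals-29 (3.48), pals-30 (3.43), pals-32 (3.42) and pals-33 (3.10). A probe set of the type that can match related transcripts read 8 of the 47 genes, and signals of family members are not fully separable there.

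The response's ubiquitin ligase components rose as well. The cullin cul-6 read 5.72, 5.71 and 5.70 in N2 and 7.42, 7.42 and 6.78 in the mutant (2.82-fold), and the Skp1-related adaptors skr-3, skr-4 and skr-5 all rose, skr-3 and skr-4 by 0.91 and 2.15 and skr-5 5.29-fold. skr-5 read 5.73, 5.35 and 5.81 against 8.16, 8.20 and 7.74. drh-1, the RIG-I-like receptor of the antiviral pathway, rose by 0.67 ± 0.10 (0.34 as the median over its probe sets). Of the antagonistic regulator pair of the response, the repressor pals-22 rose from 7.11, 7.05 and 7.18 to 7.91, 7.55 and 7.71 (0.61 ± 0.11, adjusted p = 0.000566), and the activator pals-25 did not pass the test (0.17 ± 0.11, adjusted p = 0.364).

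DNA replication genes rose together in the mutant larvae. Of 23 measured genes that license and fire replication origins 18 rose and none fell (median 0.77), and of 32 genes of the replication fork and nucleotide supply 24 rose and none fell (median 0.70). orc-5, a subunit of the origin recognition complex, rose from 7.47, 7.57 and 7.45 to 9.52, 9.23 and 9.31, by 1.86 ± 0.10 (adjusted p = 3.6e-11). The initiation factors mus-101, sld-2, cdc-7 and psf-3 rose by 1.83, 1.58, 1.55 and 1.38, and the replicative helicase subunit mcm-7 by 1.34 ± 0.11, from 9.95, 9.98 and 9.77 to 11.41, 11.09 and 11.20. At the fork, tipn-1, the partner of Timeless, rose from 5.88, 6.09 and 5.90 to 8.65, 8.27 and 8.16, a 5.29-fold rise. DNA ligase lig-1 rose by 1.55, the nuclease-helicase dna-2 by 1.32, the checkpoint mediator clsp-1 and the clamp loader subunit dscc-1 each by 1.18, and ctf-4 by 1.04. The ribonuclease H gene rnh-1.3 showed the largest rise with such a function, from 6.91, 6.87 and 6.81 to 11.17, 11.18 and 10.85 (4.20 ± 0.14). For orc-5, mcm-7, tipn-1 and rnh-1.3, named for the size of their rise, no mutant array overlapped an N2 array, as in 12.8% of all genes upward.

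Chromosome segregation genes followed. Of 19 measured kinetochore genes 16 rose (84.2%, beside 8.72% of all genes) and none fell (median 0.90). Leaving out any 1 array again gave 16. kbp-3, a subunit of the Ndc80 complex that binds microtubules, rose from 9.40, 9.10 and 9.17 to 11.67, 11.47 and 11.58, by 2.35 ± 0.12 (adjusted p = 1.26e-11), and the kinetochore proteins knl-3, kbp-4, him-10 and knl-1 rose by 1.42, 1.32, 1.19 and 1.09. mis-12, a kinetochore protein left off the list, rose by 1.22. Among 24 genes of mitotic kinases, the spindle checkpoint and anaphase 17 rose and none fell (median 0.73), including the anaphase-promoting complex subunit such-1 (1.28), the checkpoint protein san-1 (1.17), the INCENP protein icp-1 (1.16) and separase, sep-1 (1.16). Of 21 condensin and cohesin genes 12 rose and none fell, led by the condensin II subunit hcp-6 (1.55), the meiotic cohesin kleisin coh-3 (1.47) and the condensin subunit capg-2 (1.25), with smc-5 of the related SMC-5/6 complex at 1.14. Of 34 centrosome, spindle and cytokinesis genes 17 rose and none fell, among them the centralspindlin pair zen-4 (1.27) and cyk-4 (2.29-fold), the centriole protein sas-6 (1.23) and the spindle positioning protein gpr-2 (2.15-fold).

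DNA repair genes rose in 28 of 50 measured cases (56.0%, beside 8.72% of all genes) and fell in none, with a median of 0.42. The translesion polymerase polh-1 rose from 6.10 ± 0.07 (SD, n = 3) to 7.85 ± 0.20 (SD, n = 3), by 1.76 ± 0.13, and the poly(ADP-ribose) polymerase parp-1 by 1.72 ± 0.15. The repair nucleases exo-3 rose by 1.58 and exo-1 2.64-fold, and on the log2 scale the polymerase polk-1 by 1.48, the mismatch repair protein msh-6 by 1.39 and cku-80, the Ku80 end-binding protein, by 1.28. Every one of these 7 genes, named for the size of their rise, was higher in all 3 mutant arrays than in any N2 array, as were 12.8% of all genes. Over the leave-one-out fits the number of repair genes that rose ran from 23 to 32.

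**Figure D3:**
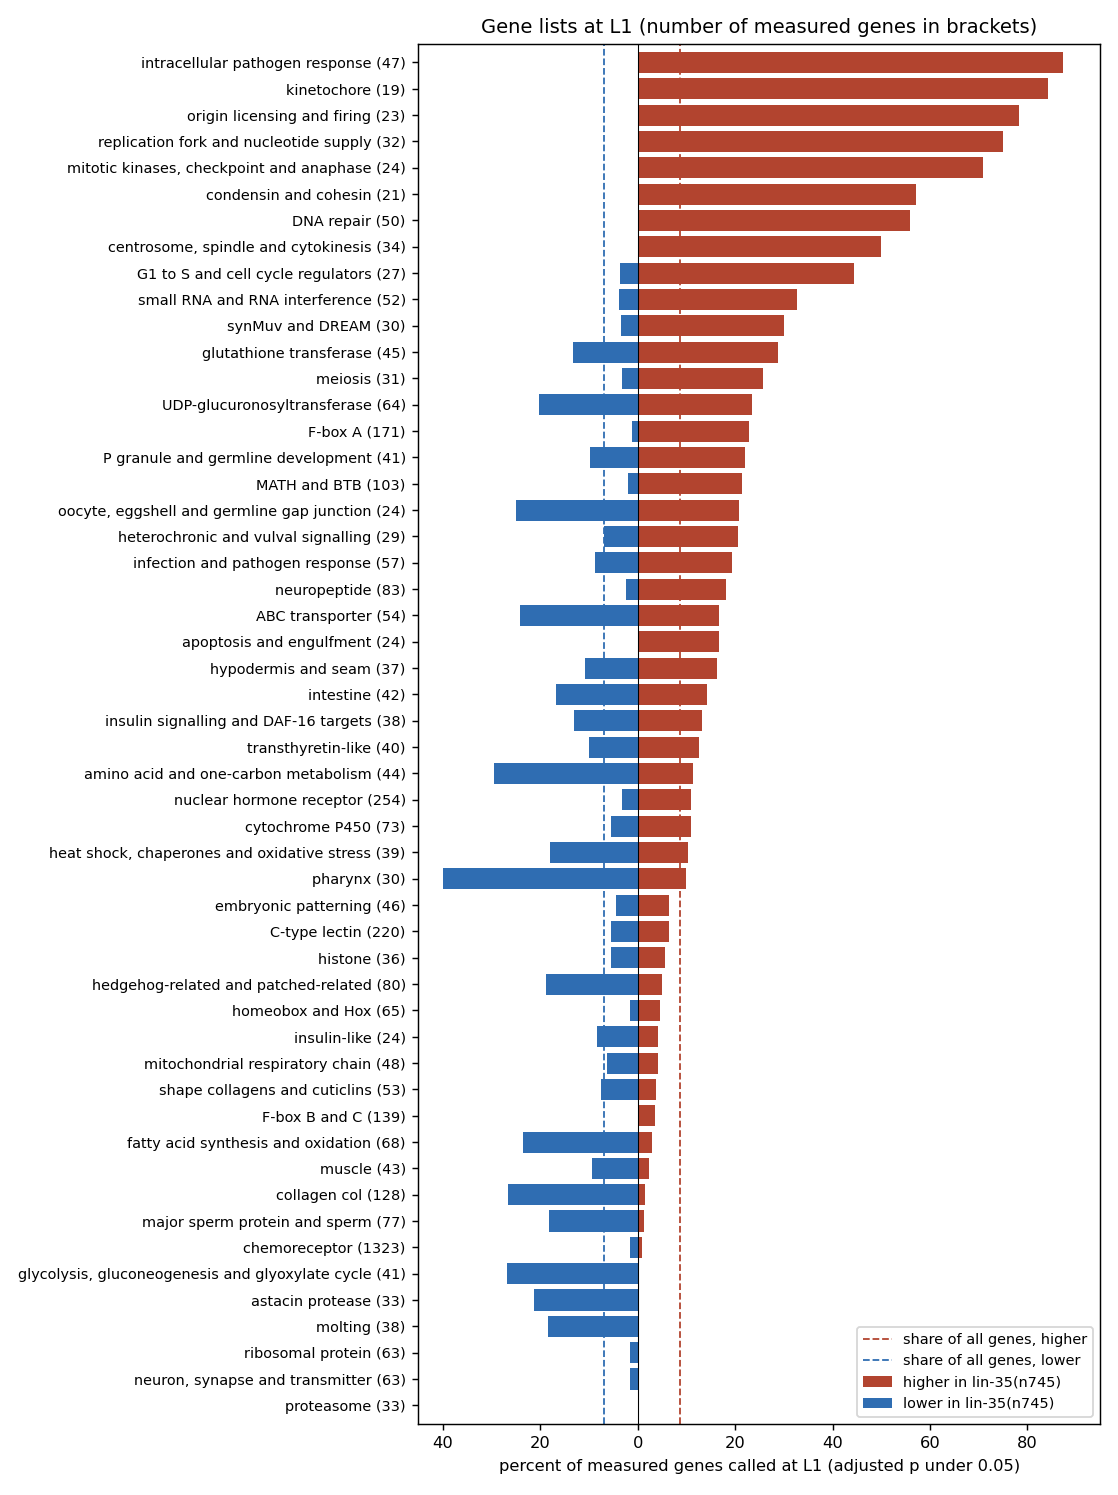
Percent of measured genes called higher (red, to the right) or lower (blue, to the left) in lin-35(n745) L1 larvae for each list with 19 or more measured genes (number in brackets), with dashed lines at the shares of all genes, 8.72% and 6.81%. Intracellular pathogen response, kinetochore and replication lists have the longest red bars, with 41 of 47, 16 of 19, 18 of 23 and 24 of 32 genes, and the pharynx list the longest blue bar, with 12 of 30.

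The partners of LIN-35 were partly among the genes that rose. Both subunits of the E2F and DP heterodimer did: efl-1 from 7.54, 7.20 and 7.59 to 8.38, 8.58 and 8.43 (1.02 ± 0.12, adjusted p = 1.72e-06), and dpl-1 from 7.11, 7.26 and 7.27 to 8.67, 8.10 and 8.54 (1.22 ± 0.14). The second E2F gene efl-2 did not pass the test (-0.19 ± 0.13, adjusted p = 0.37). Of the MuvB proteins, lin-9 rose by 1.13 ± 0.12 and the histone-binding protein lin-53 by 0.65 ± 0.11. lin-37 stood at 0.33 ± 0.10 (adjusted p = 0.0316), which did not pass without N2 replicate 2 (adjusted p = 0.0635), N2 replicate 3 (0.27, adjusted p = 0.15), lin-35(n745) replicate 1 (adjusted p = 0.0967) or lin-35(n745) replicate 3 (adjusted p = 0.0703). lin-52 (0.03, adjusted p = 0.898) and lin-54 (0.06, adjusted p = 0.747) did not pass the test. The zinc finger genes lin-13 and lin-36 rose, lin-13 2.14-fold and lin-36 by 0.70 ± 0.15, and for lin-36 the median over its probe sets was 0.02 (adjusted p = 0.947). Over the 30 measured genes of the DREAM complex and the synthetic multivulval pathways, 9 rose and 1, lin-35 itself, fell. Without lin-35(n745) replicate 2 the number that rose was 14, and without replicate 3 it was 5.

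Cell cycle regulators of the G1 to S transition rose in 12 of 27 cases (44.4%, beside 8.72% of all genes). cyclin E, cye-1, rose by 0.78 ± 0.10 and the mitotic kinase cdk-1 by 0.74 ± 0.10, and so did both inhibitors of cyclin-dependent kinases, cki-2 by 1.06 ± 0.12 and cki-1 by 0.63 ± 0.11. The phosphatase gene cdc-25.3 was the 1 member that fell, by 0.56 ± 0.13. Of 24 apoptosis and engulfment genes 4 rose (16.7%, beside 8.72% of all genes) and none fell. The rises included the engulfment receptor ced-1 (0.69 ± 0.16, adjusted p = 0.0673 with the L1 arrays alone). The number that rose was 2 without N2 replicate 2.

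The steepest falls were in pud-3 and pud-4, adjacent genes on chromosome V first named as proteins raised in daf-2 mutants. pud-3 read 10.57, 10.42 and 10.19 in N2 and 5.74, 5.16 and 5.05 in lin-35(n745), a difference of -5.07 ± 0.15 (adjusted p = 2.37e-15). pud-4 read 9.51, 9.29 and 9.37 against 5.33, 4.42 and 4.15, a difference of -4.75 ± 0.19 (adjusted p = 1.57e-13). All 3 mutant arrays lay far below N2 in both genes.

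Many collagen genes of the cuticle fell. Of 128 genes of the numbered collagen family 34 fell (against 6.81% of all genes) and 2 rose, with a median of -0.32. col-91 read 8.71, 8.56 and 8.80 in N2 and 5.49, 7.11 and 5.93 in the mutant (-2.51 ± 0.24), and col-39 read 10.84, 10.42 and 10.68 against 7.28, 9.29 and 8.08 (-2.43 ± 0.31). col-130 and col-180 fell by 1.90 ± 0.36 and 1.49 ± 0.33, and col-180 stood at -0.97 without lin-35(n745) replicate 3. Neither passed when the L1 arrays were fitted alone (adjusted p = 0.0637 and 0.103). Mutant replicate 2 was the highest mutant array, and so the closest to N2, in 32 of the 34 collagens that fell. The count of fallen collagens was 64 without that array, 21 without replicate 1, 18 without replicate 3 and 22 without N2 replicate 3. It was 10 when the L1 arrays were fitted alone. Of the 53 other cuticle genes measured, the collagens named for body shape and the cuticlins, 4 fell (7.55%, against 6.81% of all genes) and 2 rose, with a median of -0.10.

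The same array stood apart in pharyngeal and epidermal secretion genes. Of 30 measured pharynx genes 12 fell and 3 rose, and mutant replicate 2 was the highest mutant array in all 12. abu-6, one of the genes for proteins of the pharyngeal cuticle, read 11.26, 11.28 and 11.26 in N2 and 8.06, 11.48 and 7.39 in lin-35(n745), so that replicate 2 read above all N2 arrays and the others read far below. Its difference was -2.29 ± 0.58 (adjusted p = 0.0101). It was -3.54 without replicate 2, and it did not pass without replicate 1 (-1.83, adjusted p = 0.0559) or replicate 3 (adjusted p = 0.066). The related abu-8 (-2.09, -3.25 without replicate 2) likewise did not pass without replicate 1 (adjusted p = 0.0648) or 3 (adjusted p = 0.0744). abu-10 (-2.29, or -1.12 as the median over its probe sets), abu-15 (-2.45, -3.70 without replicate 2), pqn-54 (-1.62, -2.45 without replicate 2) and pqn-74 (-1.48) fell by similar amounts. The counts of fallen pharynx genes were 14 without replicate 2, 7 without replicate 1, 5 without replicate 3 and 0 with the L1 arrays alone, a fit in which these genes' spread was estimated from 6 arrays. The rises were led by phat-3, a pharyngeal gland protein (1.06 ± 0.18), and included the pharyngeal homeobox gene ceh-22 (0.50 ± 0.11, or 0.31 as the median over its probe sets). The summed level of the pharynx list was 14.95 to 14.98 in N2 and 14.11, 14.97 and 14.13 in lin-35(n745) replicates 1, 2 and 3.

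Of 33 astacin proteases, secreted metalloproteases that act on the cuticle and in digestion, 7 fell (21.2%, beside 6.81% of all genes) and none rose. Replicate 2 was again the highest mutant array in all 7. nas-1 read 7.28, 7.19 and 7.53 in N2 and 5.24, 7.17 and 4.61 in the mutant (-1.66 ± 0.37). nas-30 fell by 1.43, nas-7 by 1.22 (-0.80 without replicate 3) and nas-36, a protease needed for shedding the old cuticle, by 1.09. Without replicate 2, 13 astacins fell. Of 80 hedgehog-related and patched-related genes 15 fell and 4 rose. grl-21 fell by 2.08 ± 0.55 (-3.25 without replicate 2), which did not pass without replicate 1 (-1.42, adjusted p = 0.077) or 3 (-1.59, adjusted p = 0.07), and the patched-related ptr-23 fell by 0.92 (-0.59 without replicate 1). ptr-22 rose by 2.01 ± 0.36, or 1.26 without replicate 3. Without replicate 3, 8 genes of these families fell. Of 38 molting genes 7 fell (18.4%, beside 6.81% of all genes) and none rose. Those that fell included bli-5 (-0.79), mlt-7 (-0.73) and mlt-10 (-0.67), and 11 fell without replicate 2. nspb-12, a small gene outside these lists, read 9.45, 9.49 and 9.48 in N2 and 5.85, 9.22 and 5.89 in the mutant (-2.49 ± 0.52). With the 6 L1 arrays fitted by themselves, nas-1, nas-30 and nas-7 lost their calls (adjusted p = 0.103, 0.105 and 0.106). So did grl-21 (0.164), ptr-23 (0.103), bli-5 (0.0845) and nspb-12 (0.0878). What set replicate 2 apart was not tested.

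**Figure D4:**
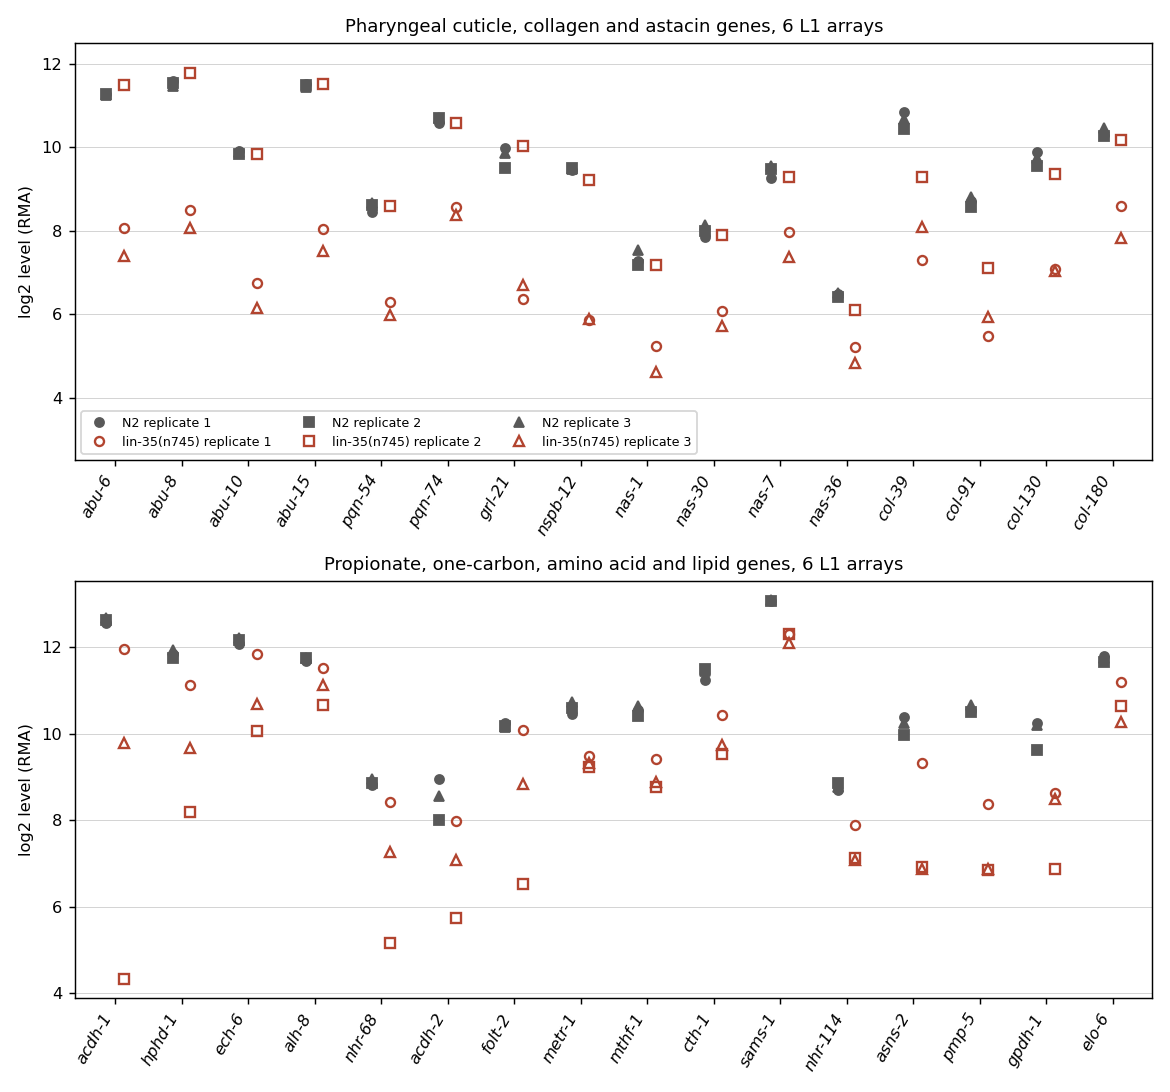
RMA log2 level (vertical axis) in the 6 L1 arrays, filled symbols for N2 and open symbols for lin-35(n745), with 1 shape per replicate. In the upper panel (pharyngeal cuticle, collagen, astacin and related genes) mutant replicate 2 reads near N2 in genes such as abu-6 while replicates 1 and 3 read lower, and in the lower panel (propionate, one-carbon, amino acid and lipid genes) it reads lowest in acdh-1, at 4.32.

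Enzymes of the propionate shunt, which breaks down propionate when vitamin B12 is scarce, fell in the mutant with a wide spread. The genes described here were put together by their known roles after their values were seen and were not a list of their own, so no count is given for the shunt. acdh-1, the first enzyme of the shunt, read 12.56, 12.64 and 12.68 in N2 and 11.96, 4.32 and 9.80 in lin-35(n745), a difference of -3.94 ± 1.03 that was -1.75 without replicate 2 and lost its call when the 6 L1 arrays were fitted by themselves (adjusted p = 0.171). hphd-1 read 11.85, 11.75 and 11.94 against 11.13, 8.19 and 9.68 (-2.18 ± 0.39, and -1.44 without replicate 2). ech-6 read 12.08, 12.17 and 12.21 against 11.86, 10.07 and 10.70 (-1.28 ± 0.25), and alh-8 fell by 0.62 ± 0.15 (-0.41 without replicate 2). The shunt's transcriptional activator nhr-68 read 8.82, 8.87 and 8.94 against 8.42, 5.17 and 7.27 (-1.92 ± 0.45, and -1.03 without replicate 2). With the 6 L1 arrays fitted by themselves the other calls were lost too, with adjusted p = 0.0546 for hphd-1, 0.0717 for ech-6, 0.0895 for alh-8 and 0.118 for nhr-68. In all 5 genes replicate 1 was the mutant array nearest to N2 and replicate 2 the farthest. acdh-2, a paralog of acdh-1, fell by 1.57 ± 0.35, or by 0.98 without replicate 2, and it too lost its call in that fit (adjusted p = 0.0908).

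Some genes of or around the methionine cycle, a vitamin B12-dependent pathway of the worm, fell more evenly. They were picked by known role with the results known and were not a list of their own, so no count is given for the cycle. metr-1, methionine synthase, read 10.47, 10.61 and 10.74 in N2 and 9.49, 9.23 and 9.32 in lin-35(n745), a difference of -1.26 ± 0.10 (adjusted p = 8.83e-09). mthf-1, which supplies its methyl folate, read 10.56, 10.42 and 10.65 against 9.43, 8.77 and 8.89 (-1.51 ± 0.14). The S-adenosylmethionine synthetase sams-1 fell by 0.84 ± 0.11 (by 1.35 as the median over its probe sets), the cystathionine gamma-lyase cth-1 2.82-fold and nhr-114, a receptor that activates methionine cycle genes, by 1.42 ± 0.16. The folate transporter folt-2 was not even. It read 10.10, 6.54 and 8.83 in the mutant against 10.16 to 10.26 in N2 (-1.71 ± 0.48, and -0.73 without lin-35(n745) replicate 2). It did not pass without N2 replicate 1, 2 or 3 (adjusted p = 0.0544, 0.0524 and 0.0539).

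In the wider list of amino acid and one-carbon metabolism 13 of 44 genes fell and 5 rose, with a median of -0.21, and 20 fell without lin-35(n745) replicate 1. asns-2, an asparagine synthetase, read 10.40, 9.98 and 10.25 in N2 and 9.32, 6.92 and 6.88 in the mutant (-2.50 ± 0.38). Its relative asns-1 fell by 1.12 ± 0.26 (adjusted p = 0.108 with the L1 arrays alone) and the glycine decarboxylase gldc-1 by 1.13 ± 0.20. The glutamine synthetases went the other way: gln-6 rose from 6.70, 5.77 and 6.13 to 9.29, 9.32 and 9.26 (3.09 ± 0.16), and gln-5 rose by 1.49 ± 0.11.

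Of 68 genes of fatty acid synthesis and oxidation 16 fell (23.5%, beside 6.81% of all genes) and 2 rose (2.94%, beside 8.72%). The list median was -0.22. The fatty acid elongase elo-6 fell by 1.04 ± 0.16 and the desaturase fat-7 by 0.94 ± 0.17. Replicate 1 was the highest mutant array in 15 of the 16 genes that fell, and without it 25 fell. The ABC transporter gene pmp-5 read 10.52, 10.49 and 10.67 in N2 and 8.38, 6.85 and 6.87 in the mutant (-3.20 ± 0.25, adjusted p = 9.27e-09). Of 41 genes of glycolysis, gluconeogenesis and the glyoxylate cycle none rose and 11 fell (26.8%, beside 6.81% of all genes). That number was 2 without lin-35(n745) replicate 3, 7 without replicate 2 and 15 without replicate 1, 4 and 5 without N2 replicates 2 and 3, and 0 with the L1 arrays alone. gsy-1, glycogen synthase, fell by 0.42 ± 0.10, which did not pass as the median over its probe sets (-0.25, adjusted p = 0.0551) or with the L1 arrays alone (adjusted p = 0.075). gpdh-1, a glycerol-3-phosphate dehydrogenase known for its induction by high salt, read 10.24, 9.63 and 10.20 against 8.63, 6.88 and 8.50 (-2.02 ± 0.30). Of 48 respiratory chain genes 2 rose (4.17%, under the 8.72% of all genes) and 3 fell (6.25%, near the 6.81%), and the number that fell ran from 0 (without lin-35(n745) replicate 3 or N2 replicate 2) to 11 (without lin-35(n745) replicate 1). One of those that rose was ucr-2.3, a subunit of the cytochrome bc complex, from 7.22, 7.34 and 7.13 to 10.38, 10.08 and 9.77 (2.85 ± 0.14).

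A few groups of genes fell against an N2 group whose replicate 1 read high. Yolk protein genes, normally expressed in the adult intestine, were 1 such group: 4 of 5 fell, with a median of -1.44, or -0.85 without N2 replicate 1. vit-4 read 8.77, 6.06 and 6.92 in N2 and 5.05, 5.34 and 5.61 in the mutant (-1.91 ± 0.40, and -1.16 without N2 replicate 1). vit-5 fell by 1.80 (0.98 without it), vit-2 by 1.44 (0.85) and vit-6 by 0.87 (0.52). None of the 4 passed when the 6 L1 arrays were fitted by themselves (adjusted p = 0.0752 for vit-4, 0.1 for vit-5, 0.08 for vit-2 and 0.0924 for vit-6). The summed yolk protein level was 10.25, 8.44 and 8.73 in N2 L1 and 7.67 to 8.05 in lin-35(n745) L1, against 9.83 to 10.06 in N2 L4 larvae. Of 77 sperm genes 14 fell and 1 rose, and N2 replicate 1 was the highest N2 array in 10 of the 14. The major sperm protein genes msp-78 and msp-19 fell by 1.08 (0.67 without N2 replicate 1) and 1.04. Without N2 replicate 1, 8 sperm genes fell, and after median centring 24 did. The small heat shock gene hsp-16.41 read 8.72, 6.22 and 7.35 in N2 and 5.77, 5.96 and 5.11 in the mutant (-1.82 ± 0.38, and -1.17 without N2 replicate 1), and hsp-16.2 fell by 1.37 ± 0.29. With the 6 L1 arrays fitted by themselves, msp-78, hsp-16.41 and hsp-16.2 lost their calls (adjusted p = 0.0811, 0.0738 and 0.064). The part of yolk and sperm RNA in the other differences was not tested.

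Markers of nerve and muscle moved little, and those of intestine and epidermis moved in both directions. Of 63 neuronal genes none rose and 1 fell, the tyrosine decarboxylase tdc-1 (-0.55 ± 0.13), which did not pass without lin-35(n745) replicate 3 (-0.38, adjusted p = 0.0562) or as the median over its probe sets (-0.17, adjusted p = 0.428). Of 43 muscle genes 1 rose (2.33%, beside 8.72% of all genes) and 4 fell (9.30%, beside 6.81%). The falls included troponin T, tnt-3 (-0.67), and the basement membrane collagen let-2 (-0.84), and without lin-35(n745) replicate 1 the number that fell was 10. Of 42 intestinal genes 6 rose and 7 fell. The intestinal master regulator elt-2 rose by 0.54 ± 0.09 while elt-7, which acts beside it, fell by 0.76 ± 0.11, and the protease cpr-3 and the transporter pgp-1 rose by 1.59 and 1.33 (pgp-1 0.87 without lin-35(n745) replicate 3). Of 37 hypodermal and seam genes 6 rose and 4 fell, with rises of the cell fusion protein eff-1 (0.91) and the Runx factor rnt-1 (0.70). Of 46 embryonic patterning genes 3 rose and 2 fell, and of 29 heterochronic and vulval signalling genes 6 rose and 2 fell. Those 2 were the heterochronic gene lin-46 (-0.70) and the phosphatase lip-1 (-0.71, adjusted p = 0.0531 with the L1 arrays alone). The share that rose was 14.3% in the intestine list, 6 of 37 genes in the hypodermis list and 6.52% in the patterning list, beside 8.72% of all genes. The shares that fell were 16.7%, 10.8% and 4.35% in the same order, beside 6.81% of all genes. In the heterochronic and vulval list 20.7% rose and 6.90% fell. Leaving out any 1 array gave 4 to 9 fallen intestinal genes, 3 to 8 risen and 2 to 4 fallen hypodermal genes, 1 to 4 risen and 1 to 3 fallen patterning genes, and 1 to 8 risen heterochronic and vulval genes.

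The core protein machinery showed few calls. None of 33 proteasome genes was called in either direction (median -0.08) by limma at the adjusted threshold. Of 63 ribosomal protein genes none rose and rpl-11.1 fell, by 0.28 (adjusted p = 0.0459), a call that did not pass when any 1 of 5 of the 6 L1 arrays was left out (adjusted p = 0.0903 to 0.143). Of 36 histone genes 2 rose, among them the variant htz-1 (0.59 ± 0.10), and 2 fell, with 1 to 3 risen and 0 to 3 fallen when 1 array was left out. The histone share each way, 5.56%, was under the 8.72% and 6.81% of all genes.

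The strain differences at the 3 stages rest on separate arrays but share the pooled spread of each probe set, so their calls are not independent. Many of the genes raised at L1 were raised at the other stages too. Of the 1492 genes higher at L1, 734 were also higher at L4 (49.2%, of 1411 called there, 8.24% of all genes) and 431 in embryos (28.9%, or 40.4% of the 1067 called there, 6.23%). Of the 1166 lower at L1, 330 were lower at L4 (28.3%, or 23.8% of 1388, 8.11%) and 97 in embryos (8.32%, or 13.8% of 705, 4.12%). All 3 stages agreed for 308 higher and 53 lower genes. F37D6.3 differed by nearly the same amount throughout (4.02 at L1, 3.74 in embryos, 4.09 at L4), and rnh-1.3 rose by 4.20, 2.32 and 4.29.

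A test of the difference between stages passed for 1647 genes against embryos (9.62%) and 1228 against L4 (7.17%). Among the 1492 genes higher at L1, 698 differed from the embryonic effect and 376 from the L4 effect. These genes were chosen for their rise at L1, so the direction of those differences is not counted here. pgl-3 rose by 4.81 at L1 against 1.63 in embryos and 1.98 at L4 (difference adjusted p = 1.25e-11 and 1.76e-10), and pgl-1 by 3.25 against 0.44 and 1.06. him-3 rose by 4.48 against 0.32 in embryos (adjusted p = 0.115) and 1.27 at L4. The intracellular pathogen response had 41 rises at L1, 6 at the embryonic stage and 31 at L4, and the L1 effect differed from the embryonic one in 33 of its 47 genes. The kinetochore list had 16 rises at L1, 4 in embryos and 17 at L4, and the replication fork list 24, 8 and 24, with the L1 effect differing from the embryonic one in 13 of 19 and 18 of 32 genes. pud-3 was level between strains in embryos (0.02, adjusted p = 0.956) and fell by 2.22 at L4.

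**Figure D5:**
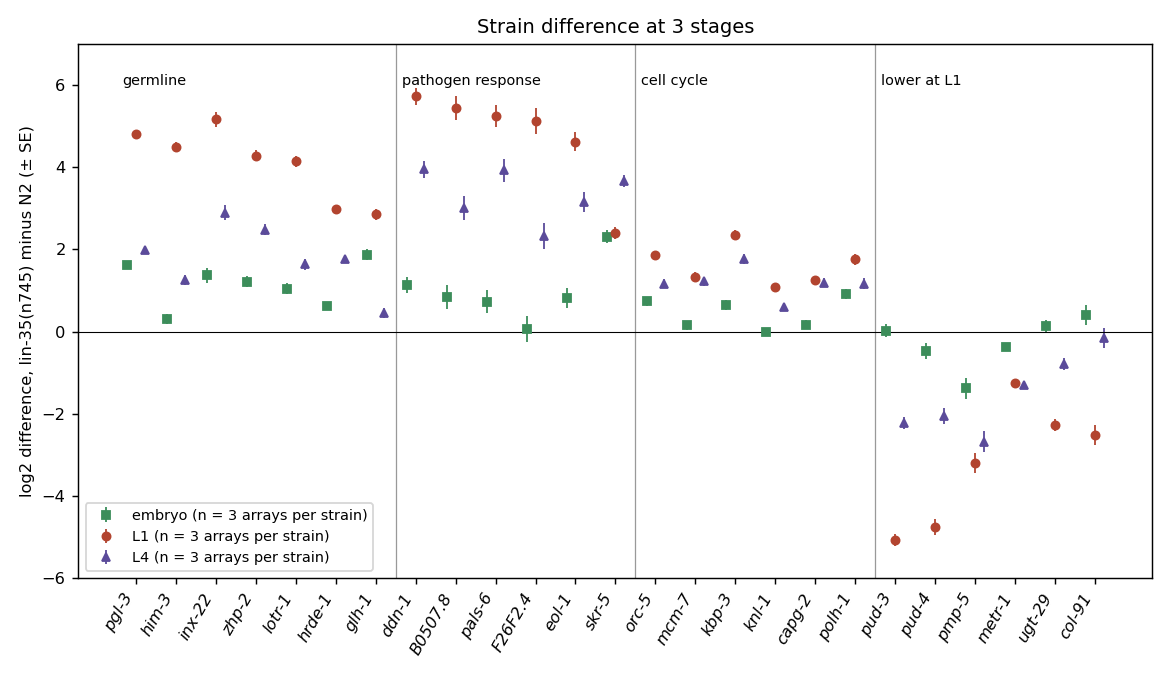
Log2 difference between lin-35(n745) and N2 (vertical axis, points with SE bars, 3 arrays per strain) in embryos (squares), at L1 (circles) and at L4 (triangles) for germline, pathogen response, cell cycle and lowered genes. The L1 circle of pgl-3 stands at 4.81 above 1.63 in embryos and 1.98 at L4, whereas skr-5 has its highest point at L4, 3.66 against 2.31 in embryos.

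Calls on the X chromosome and on the autosomes were split differently by direction. Of 2352 X-linked genes 130 were higher (5.53%) and 216 lower (9.18%), against 1361 (9.25%) and 946 (6.43%) of 14718 autosomal genes. By at least 2-fold, 12 X-linked genes rose and 30 fell, whereas 360 autosomal genes rose and 145 fell. The median difference was -0.04 on the X and -0.03 on the autosomes. The difference between these shares was not tested.

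Genes that changed at least 2-fold also lay side by side. Consecutive measured genes that moved the same way made up 37 runs with 93 genes, of which 26 runs were pairs and 8 were triplets. The longest run held 8 genes on chromosome I, namely C17H1.2 (2.66, and smaller by over 1 log2 unit as the median over its probe sets), Y26D4A.21 (1.09), pals-2 (3.52), pals-12 (1.80), pals-4 (1.15), pals-11 (2.34), pals-5 (2.99) and pals-6 (5.25). A run of 5 on the same chromosome held Y47G6A.3 (2.80), mis-12 (1.22), Y47G6A.25 (4.04), inx-22 (5.17) and inx-21 (4.14). Another on chromosome I joined D1081.6 (1.45), the meiotic gene zhp-2 (4.28) and lotr-1 (4.14), and the pair pgl-1 and him-3 lay on chromosome IV. The downward runs included pud-3 with pud-4, abu-15 with abu-6, and str-7 with cth-1 and argk-1. Neighbours on 1 strand can share a transcript, and the strand and transcript structure were not used here.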

How the data were processed

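RNA of whole animals was hybridized to 18 Affymetrix arrays, 3 for each strain at each stage. The authors' deposited table holds log2 signals summarized by RMA per the submitters' processing notes. The log base is not stated there, and the range of 2.55 to 15.0 was read as base 2. Of 22625 probe sets 77 controls were left out of the tests. All 18 arrays were fitted as 6 group means with limma 3.58.1 (R 4.3.3, 12 residual degrees of freedom), the L1 strain difference and its differences from the other stages were tested, and p-values were adjusted by Benjamini-Hochberg over 22548 probe sets. The platform annotation gave 20766 probe sets 1 gene, 887 several and 895 none, and 20701 of the 20766 matched RefSeq (65 kept their file names). A gene was represented by its probe set with the highest mean over all arrays (17118 genes). List medians and counts are over the measured members.

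The members, gene lists and tests were chosen with earlier results of these data known. Genes were named by size of change among those called: the 25 largest each way without overlap between the strains' L1 arrays, up to 8 per list and the 15 largest differences from each other stage. Lists without a called gene gave those with the smallest p. Also named were 10 called genes with the widest mutant range, members of the longest neighbour runs and a fixed set of E2F, DP and DREAM genes. A further 25 genes in the text outside that rule were chosen after their values were seen. Alternatives were the L1 arrays alone, median centring, repeated quantile normalization, a low-level filter, trend and robust variances, array weights, a replicate block, each L1 array left out and the median over a gene's probe sets. The code was tested on simulated data. The number of arrays limits the precision.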

Additional observations from a re-analysis of the deposited data

Results flagged for a closer look

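The strain difference at L1 was tested against the strain difference at each other stage. Among the 403 named genes, the difference from embryos passed the test in 246 and the difference from L4 larvae in 153. Of all 17118 genes, 9.62% and 7.17% passed. The named genes were chosen partly by the size of their L1 change and partly by the size of these differences. Their counts therefore follow largely from that choice. The 15 genes with the largest values in each comparison follow, as log2 values (L1 effect minus the other stage's effect).

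Against embryos, the larger increases at L1 were in genes of the intracellular pathogen response, their neighbours and germline genes. The difference was 5.06 for F26F2.4, 4.93 for sdz-6, 4.59 for ddn-1, 4.58 for B0507.8, 4.52 for pals-6, 4.41 for F26F2.3, 3.80 for eol-1, 3.72 for F57G4.11 and 3.61 for C43D7.4. It was 4.17 for the meiotic axis gene him-3 and 3.80 for the gap junction gene inx-22. The larger decreases at L1 were in pud-3 (-5.10), grl-21 (-4.59), pud-4 (-4.28) and nspb-12 (-3.55). grl-21 and nspb-12 are genes in which lin-35(n745) L1 replicate 2 read near N2.

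Against L4 larvae, the value was positive where the L4 effect was a fall and the L1 effect did not pass the test. This held for clec-47 (6.12, with -5.51 at L4 and 0.62 at L1, adjusted p = 0.0852), asp-12 (4.33), nspe-7 (4.24) and Y17D7B.7 (3.03). It was positive with a rise at L1 for C43D7.4 (3.31), him-3 (3.22), C29A12.1 (2.89) and F26F2.5 (2.85). It was negative where L4 rose and L1 did not pass, for F48G7.8 (-3.32), W08E12.2 (-3.05), C32H11.4 (-3.02) and B0024.4 (-2.92), and with a fall at L1 for cyp-14A5 (-3.04), pud-3 (-2.85) and col-39 (-2.84). cyp-14A5, a cytochrome P450 gene, fell 4.30-fold at L1 and rose by 0.94 at L4.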

How the results depend on the processing

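Counts in this paragraph are of probe sets, with 1859 higher, 1564 lower, 452 and 234 of them by at least 2-fold, and 2074 and 1515 that differed from embryos and L4. With the L1 arrays alone, 1075 were higher, 509 lower and 119 lower by at least 2-fold. Single genes were followed for the 259 in the text, of which 247 were called in the main fit. With the L1 arrays alone 48 of them no longer passed, all in the same direction. Median centring gave 1569 higher and 2302 lower. Leaving out each L1 array gave 1376 to 2326 higher, 1023 to 1741 lower (1023 without N2 replicate 3), 1540 to 2881 that differed from embryos and 1021 to 2447 from L4 (2447 without lin-35(n745) replicate 2). The replicate numbers did not pair the arrays (correlations of same-numbered deviations 0.0240, 0.0551 and -0.0369). With a replicate block the counts were 1854, 1580, 453, 238, 2020 and 1520. In that fit rpl-11.1 no longer passed (adjusted p = 0.0673), and clec-47 and nspe-7 passed at L1 (adjusted p = 0.0382 and 0.0368). No other call among the 259 genes changed. Values that changed sign came from genes not called with all arrays: lin-52 at -0.02 after centring or quantile normalization and, leaving out each array, -0.0745 to 0.101, lin-54 at -0.0366 to 0.129, asp-12 at -0.174 to 0.0706, W08E12.2 at -1.06 to 0.28 and C32H11.4 at -0.63 to 0.55. Called among these were W08E12.2 at -1.06 without lin-35(n745) replicate 2 (adjusted p = 1.05e-05) and C32H11.4 at 0.55 without replicate 3 (adjusted p = 0.0278). Each turned without lin-35(n745) replicate 1 (lin-52, W08E12.2), 2 (asp-12) or 3 (lin-54, W08E12.2, C32H11.4), and lin-54 also without N2 replicate 3. Why these moved was not tested. The share of promoters holding a motif was not run, as no promoter sequences were used here. The number of arrays limits what can be told for genes with spread mutant replicates.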

Other observations

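Families of environmental response and protein turnover genes are set here beside the 8.72% of all genes that were higher and the 6.81% lower. Of 171 F-box A genes, substrate adaptors of ubiquitin ligases, 39 rose and 2 fell, led by fbxa-158 (2.82), fbxa-75 (5.28-fold) and fbxa-182 (2.32), which are also on the pathogen response list, then fbxa-157 (2.27) and fbxa-163 (2.14). fbxa-158 read 3.80, 3.67 and 3.20 in N2 and 6.48, 6.64 and 6.02 in lin-35(n745), with no overlap. fbxa-164 (1.01) and fbxa-165 (1.49) lie beside fbxa-163 on chromosome II. Of 103 MATH and BTB domain genes, adaptors of another ligase type, 22 rose and 2 fell, with math-15 at 1.98, bath-36 at 1.96, math-39 at 1.42 and bath-40 at -1.17. Of 139 F-box B and C genes 5 rose, among them fbxc-58 (1.68) and fbxb-14 (1.21), and none fell, both under the shares of all genes (3.60% and 0%). Leaving out any 1 array gave 34 to 39 risen F-box A genes and 18 to 20 risen MATH and BTB genes.

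Detoxification genes moved both ways. Of 45 glutathione transferases 13 rose and 6 fell (3 without N2 replicate 1 or 3), with gst-38 at 1.71, gst-22 at 1.46, gst-24 at 1.44, gst-5 at 0.88 and gst-10 at -0.87 (-0.53 without lin-35(n745) replicate 3). Of 64 UDP-glucuronosyltransferases 15 rose and 13 fell, and 9 rose without N2 replicate 3 and 8 without lin-35(n745) replicate 3. ugt-29 read 7.74, 8.08 and 7.69 in N2 and 5.53, 5.30 and 5.86 in the mutant (-2.27 ± 0.15, adjusted p = 4.44e-10), ugt-6 fell by 1.49, and ugt-8 and ugt-19 rose by 1.17 and 1.14. Of 73 cytochrome P450 genes 8 rose and 4 fell, with cyp-33C8 at 1.21 and cyp-14A5 4.30-fold lower, and without lin-35(n745) replicate 2 the number that rose was 13. Of 54 ABC transporters 9 rose and 13 fell, and 8, 7 and 8 fell without N2 replicate 2, N2 replicate 3 and lin-35(n745) replicate 3. wht-3 rose from 4.58, 4.44 and 4.70 to 7.16, 7.33 and 7.24 (2.67 ± 0.13), wht-7 rose by 1.99 and pmp-2 fell by 0.66.

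Of 220 C-type lectins, secreted or membrane proteins used in defence among other roles, 14 rose (6.36%) and 12 fell (5.45%), both under the shares of all genes. The neighbours clec-60 and clec-61 rose by 3.01 ± 0.25 and 2.67 ± 0.13 at L1 and by 3.97 and 3.98 at L4, with 0.03 and -0.06 in embryos (adjusted p = 0.97 and 0.873). clec-60 read 6.83, 6.40 and 6.64 in N2 and 10.14, 9.85 and 8.92 in the mutant. clec-174 (2.70), clec-67 (1.80) and clec-17 (1.73) rose and clec-230 fell from a mean of 9.64 to 8.44 (adjusted p = 0.052 with the L1 arrays alone). Of 57 infection response genes outside the intracellular list 11 rose and 5 fell, and 3 and 2 fell without N2 replicates 2 and 3. irg-5 rose by 0.86 at L1 and 2.62 in embryos and fell by 1.48 at L4, and irg-4 rose by 1.09 at L1 and fell by 1.14 at L4. The saposin-like gene spp-12 read 8.57, 8.35 and 8.25 in N2 and 6.98, 5.19 and 4.10 in the mutant (-2.97 ± 0.39). The lysozyme gene ilys-5 fell by 1.55 (0.85 without lin-35(n745) replicate 3), with adjusted p = 0.0924 with the L1 arrays alone. Of 38 genes of insulin signalling and DAF-16 targets 5 rose and 5 fell (13.2% each), with a median of 0.01, and 9 rose and 3 fell without lin-35(n745) replicate 2. The number that rose was 3 without lin-35(n745) replicate 3 or N2 replicate 2 or 3, and the number that fell was 3 without N2 replicate 1 or 3. The falls were aqp-1, sams-1, icl-1, ins-33 and daf-28, and the rises included far-3, dod-23 and dod-19. far-3 rose by 2.03 (1.33 without lin-35(n745) replicate 3), dod-23 by 1.77 and dod-19 by 1.16.

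Of 83 neuropeptide genes 15 rose, among them nlp-51 (0.83), and 2 fell, among them nlp-24 (-0.58). Mutant replicate 2 was the lowest mutant array in all 15, and 36 rose without it, 7 without N2 replicate 2 or 3 and 5 without lin-35(n745) replicate 3. In embryos 43 of the 83 rose and none fell. Of 254 nuclear hormone receptors 28 rose and 8 fell, with nhr-3 at 1.06 and nhr-212 at 0.88. The number that rose was 58 without lin-35(n745) replicate 2 and 16 without N2 replicate 3. Of 40 transthyretin-like genes 5 rose and 4 fell, with 3 that rose without lin-35(n745) replicate 1 and 2 that fell without lin-35(n745) replicate 3, N2 replicate 1 or N2 replicate 3. ttr-44 was among those that fell (-1.01, and -0.63 without lin-35(n745) replicate 3), and its call was lost with the L1 arrays by themselves (adjusted p = 0.0619). Of 1323 chemoreceptor genes 11 rose and 21 fell, both below the shares of all genes, and 11 and 13 fell without lin-35(n745) replicates 1 and 3, 2 with the L1 arrays by themselves and 46 after median centring. srd-4 rose by 2.59 at L1 and 3.56 in embryos, srh-16 rose 5.28-fold at L1 and by 3.22 on the log2 scale in embryos, srw-85 rose by 2.03, and str-7 fell by 1.18. Of 65 homeobox genes 3 rose, among them ceh-41 (0.62), and 1 fell.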
